A study of Mus musculus with 8 samples.

Results

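Myostatin, activin and follistatin signalling was followed through 10 genes (*Mstn*, *Gdf11*, *Inhba*, *Acvr2a*, *Acvr2b*, *Fst*, *Fstl3*, *Smad2*, *Smad3* and *Smad7*), taken as the rows of the deposited table whose gene symbol equals one of these names. All 10 were found, each in 1 row, among 22206 gene-level probe sets. Samples were gastrocnemius (GAS) muscles of male wild-type C57/Bl6j mice, 14 weeks old per the labels, taken 3 weeks after injection into the muscle of an adeno-associated virus (AAV) of serotype 1. In the AAV sh-RNA MYTHO group (4 arrays), the hairpin RNA expressed from the virus was directed against *D230025D16Rik*, the gene that codes for MYTHO. The AAV sh-RNA scrmb group (4 arrays) received the same kind of virus with a scrambled hairpin in the opposite leg. Both hairpins were driven by the U6 promoter, which is active in all cell types, so that only the serotype and the injection site direct the virus to muscle fibres. No untreated muscle was included. The question addressed here is whether knockdown of MYTHO (MYTHO-KD) altered the transcripts of this pathway in GAS.

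Myostatin is a secreted brake on muscle growth that is made by the muscle fibres themselves. Together with the closely related Gdf11 and with activins, it binds the type II receptors Acvr2a and Acvr2b, which recruit a type I receptor that phosphorylates Smad2 and Smad3, and these then enter the nucleus with Smad4. Follistatin and follistatin-like 3 trap the ligands outside the cell, and the inhibitory Smad7 blocks the receptor. In adult muscle, loss of myostatin or excess of follistatin is known to enlarge the fibres.

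The knockdown was present on all MYTHO arrays. *D230025D16Rik* had log2 signals of 8.16, 8.20, 8.80 and 8.08 in MYTHO-KD muscle and of 11.35, 11.31, 10.78 and 11.05 in scrmb muscle (animals A to D in each case), a log2 fold change of -2.81 with a Benjamini-Hochberg adjusted p of 0.00044 (limma). Array medians lay between 6.39 and 6.47. Skeletal muscle markers gave high signals on all 8 arrays. *Acta1* and *Myh4* were saturated at the ceiling of 19.93 on every array, where no difference can be seen, and *Ckm* lay between 18.00 and 18.37. Of the 8 markers on this list, 1 had an unadjusted limma p under 0.05, beside 12.4% of all probe sets. It was the fast myosin gene *Myh1*, with a log2 fold change of 0.70 (unadjusted limma p of 0.0178, adjusted p of 0.295). Its values were higher in the MYTHO-KD leg of 4 of 4 animals. RNA of whole muscle was measured, so fewer cells of a type and less RNA per cell cannot be told apart. Animal numbers in the column headers occur once in each group, and same-numbered arrays are treated as the opposite legs of 1 animal, called A to D. Signals are log2 values of 1 probe set per gene, and they are compared between arrays and not between genes.

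With all 8 arrays, none of the 10 genes passed any threshold in MYTHO-KD muscle. With at least a 2-fold change and an unadjusted p under 0.05, 0 of 10 were called, while 1.51% of all probe sets were. With an adjusted p under 0.05, 0 of 10 were called, against 0.027% of all probe sets. At an unadjusted p under 0.05 alone, 0 of 10 were called, although 12.4% of all probe sets were (limma in each case). In no member did the groups separate without overlap, as they did in 6.46% of all probe sets. With the animal as a replicate block, 0 of 10 had an unadjusted p under 0.05, against 12.6% of all probe sets. The log2 fold changes were positive for 5 members and negative for 5, with a median of -0.0025 beside -0.005 over all probe sets. Their median size was 0.26 beside 0.20 over all probe sets, and the median standard error (SE) was 0.22 in both.

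**Figure D1:**
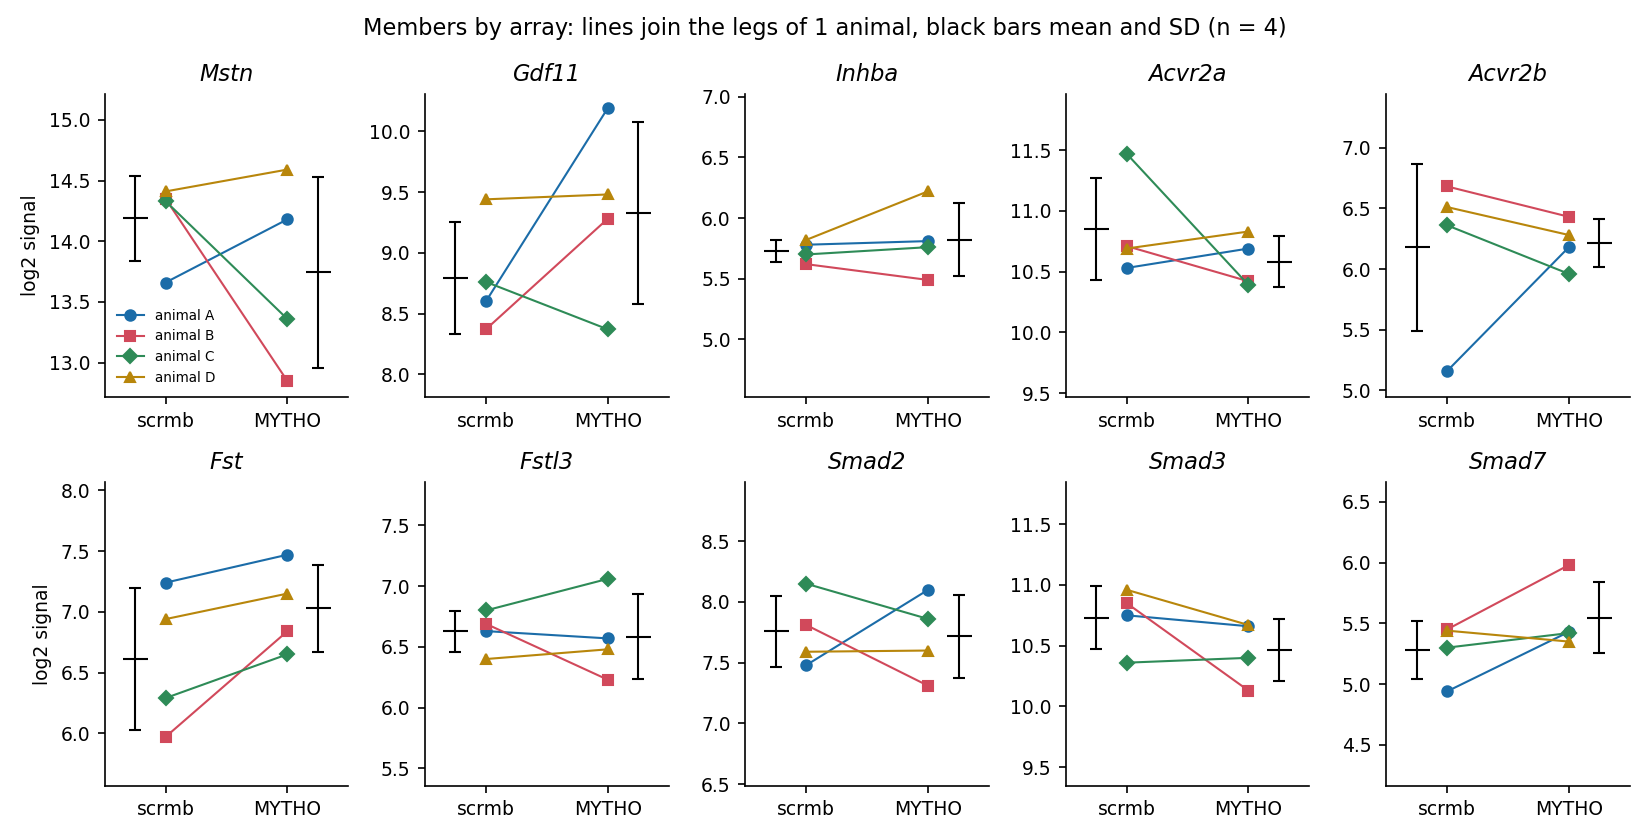
Log2 signal of each of the 10 genes on the 8 arrays, scrmb on the left and MYTHO on the right of each panel, with coloured lines joining the legs of 1 animal and black bars giving the mean and SD (n = 4). All panels span the same number of log2 units, and the groups overlap in every panel, with the lines of *Mstn* running in both directions and those of *Fst* all running upwards.

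Of the ligands, *Mstn* (chr1:53061640-53068079, mm10) and *Gdf11* (chr10:128880524-128891718, mm10) varied most within the MYTHO group. The bases just before the start of each gene are shown as a description, as both genes code for close relatives. Any link of these letters to the signals was not tested. They are the 250 bases upstream of the RefSeq gene start on GRCm38.p6, 5′ to 3′ on the strand of the gene, at chr1:53061390-53061639 on the plus strand for *Mstn* and at chr10:128891719-128891968 on the minus strand for *Gdf11*. Capitals mark the E-box CANNTG, which myogenic factors such as MyoD bind, the short Smad-binding letters CAGAC and the TATA-box letters TATAAA. Each was searched on both strands.
Mstn: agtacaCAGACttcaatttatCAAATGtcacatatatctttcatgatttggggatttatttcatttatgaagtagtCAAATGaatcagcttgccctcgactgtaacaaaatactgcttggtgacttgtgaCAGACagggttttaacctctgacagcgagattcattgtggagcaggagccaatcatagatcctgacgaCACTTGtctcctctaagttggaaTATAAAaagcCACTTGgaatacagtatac
Gdf11: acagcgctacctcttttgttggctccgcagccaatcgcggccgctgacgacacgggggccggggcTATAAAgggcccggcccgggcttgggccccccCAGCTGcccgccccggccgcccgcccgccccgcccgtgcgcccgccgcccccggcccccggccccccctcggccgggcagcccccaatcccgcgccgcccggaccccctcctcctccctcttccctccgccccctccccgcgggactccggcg
The *Mstn* window held 4 E-boxes, 2 Smad matches and 1 TATA box, none of which overlap, and the TATA box lay 29 to 24 bases before the start. In the *Gdf11* window there were 1 E-box, no Smad match and 1 match to the letters TATAAA. That match lay 185 to 180 bases before the start, not near it as in *Mstn*. Over 32536 windows of the same length, 66.2% held the E-box at any place, 42.2% the Smad letters and 12.3% the letters TATAAA. These shares count windows with at least 1 match. The FoxO letters TGTTTAC were in 3.17% of all windows and in 0 of the 7 windows that the RefSeq table gives for these genes. Such matches describe the letters and not binding.

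*Mstn* codes for myostatin. Its log2 signals in scrmb muscle were 13.66, 14.35, 14.33 and 14.41 in animals A to D, with a mean of 14.19 ± 0.35 (SD, n = 4). In MYTHO-KD muscle they were 14.18, 12.85, 13.36 and 14.59, with a mean of 13.75 ± 0.79 (SD, n = 4). The lowest and the highest of the 8 values were both in MYTHO-KD muscle, and the MYTHO arrays spanned 3.34-fold on the linear scale against 1.68-fold in scrmb muscle. Within animals, *Mstn* was lower with MYTHO-KD by log2 differences of -1.50 in animal B and -0.97 in animal C, and higher by 0.52 in animal A and 0.18 in animal D. The log2 fold change was -0.44 (SE 0.34, 95% confidence interval -1.19 to 0.30), with an unadjusted p of 0.220 and an adjusted p of 0.653 (limma). The exact permutation test gave a two-sided p of 0.343. Without MYTHO array D, the log2 fold change was -0.72 with an unadjusted limma p of 0.0423, a level that 11.9% of all probe sets reached in that fit, and the adjusted p was 0.403. Without MYTHO array B, the log2 fold change shrank to -0.14 with an unadjusted limma p of 0.644.

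Arrays with high slow-fibre signals tended to have low *Mstn* signals. The mean log2 signal of 8 slow-fibre markers (*Myh7*, *Tnnt1*, *Tnni1*, *Tnnc1*, *Myl2*, *Myl3*, *Atp2a2* and *Tpm3*) was 13.70, 11.91, 11.94 and 11.61 in scrmb muscle and 14.88, 14.43, 14.81 and 11.68 in MYTHO-KD muscle, in the order of animals A to D. The 4 arrays with the higher slow-fibre means, at 13.70 to 14.88 against 11.61 to 11.94, were also the 4 with the lowest *Mstn* signal, at most 14.18 on these and at least 14.33 on the others. Scrmb array A, in which the slow-fibre mean stood above that of the other scrmb arrays, had the lowest *Mstn* of its group, and MYTHO array D, in which it stood below that of the other MYTHO arrays, had the highest. The order did not hold throughout, since MYTHO array A had the highest slow-fibre mean of all and the second highest *Mstn* of its group. Between the legs of an animal, the slow-fibre mean was higher with MYTHO-KD in all 4 animals, by 1.18, 2.52, 2.87 and 0.08 in animals A to D, while *Mstn* was higher in animals A and D and lower in B and C. Of the 8 markers, 7 were higher in MYTHO-KD muscle at an unadjusted limma p under 0.05, as were 4.81% of all probe sets, and 0 at an adjusted p under 0.05. Their median log2 fold change was 1.59. The markers moved together across the arrays and are not separate observations. Over the 8 arrays, which come from 4 animals, the correlation of *Mstn* with the slow-fibre mean was r = -0.752, and r = -0.706 after removing the group means. Correlations of the other 9 members with that mean lay between -0.598 (*Acvr2a*) and 0.412 (*Fst*), and after removing the group means between -0.628 (*Inhba*) and 0.257 (*Fstl3*). Other genes reached r of 0.977 and -0.980 with *Mstn*, so the size of -0.752 does not set the slow-fibre markers apart. The part of fibre composition in the *Mstn* values was not tested.

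**Figure D2:**
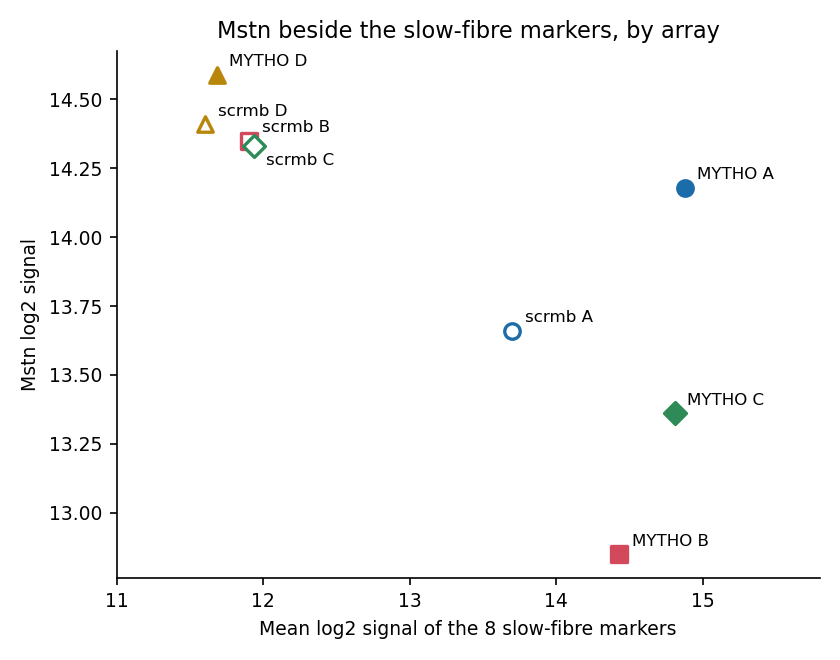
Log2 signal of *Mstn* on the y axis against the mean log2 signal of 8 slow-fibre markers on the x axis, 1 point per array, with open symbols for scrmb, filled symbols for MYTHO and 1 colour and shape per animal. The 4 arrays with slow-fibre means of 13.70 to 14.88 lie at *Mstn* signals of at most 14.18, and the 4 with means of 11.61 to 11.94 at 14.33 or more.

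The genes that tracked *Mstn* most closely over the 8 arrays were taken from 9521 probe sets that had 1 gene symbol and a mean signal above the median. The 5 with the highest correlation were *Cops3*, a subunit of the COP9 signalosome (r = 0.977), *Tprkb* (r = 0.971), *Sort1*, which codes for the sorting receptor sortilin (r = 0.962), *Eda2r*, a receptor for ectodysplasin A2 (r = 0.954), and *Eps15*, an endocytic adaptor (r = 0.947). The 5 that ran most opposite were *Lmo7* (r = -0.980), *Crim1*, which codes for a membrane protein that binds BMPs (r = -0.976), *Rhou*, a small GTPase (r = -0.973), *Chpt1*, an enzyme of phosphatidylcholine synthesis (r = -0.972), and *Ppara*, a nuclear receptor that controls fatty acid oxidation (r = -0.970). After the group means were removed, the first 5 kept r between 0.937 and 0.973 and the other 5 r between -0.982 and -0.966. None of these 10 had an unadjusted limma p under 0.05 between the groups, the lowest being 0.0835 for *Eda2r*. *Eda2r* had log2 signals of 8.96, 10.60, 10.15 and 9.91 in scrmb muscle and of 9.52, 7.99, 8.43 and 10.20 in MYTHO-KD muscle, so its 2 lowest values were on the same MYTHO arrays as those of *Mstn*. The 8 slow-fibre markers had r between -0.777 and -0.695 with *Mstn*. With 8 arrays and so many candidates, high correlations arise by the choice itself, and they are given as a description.

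**Figure D3:**
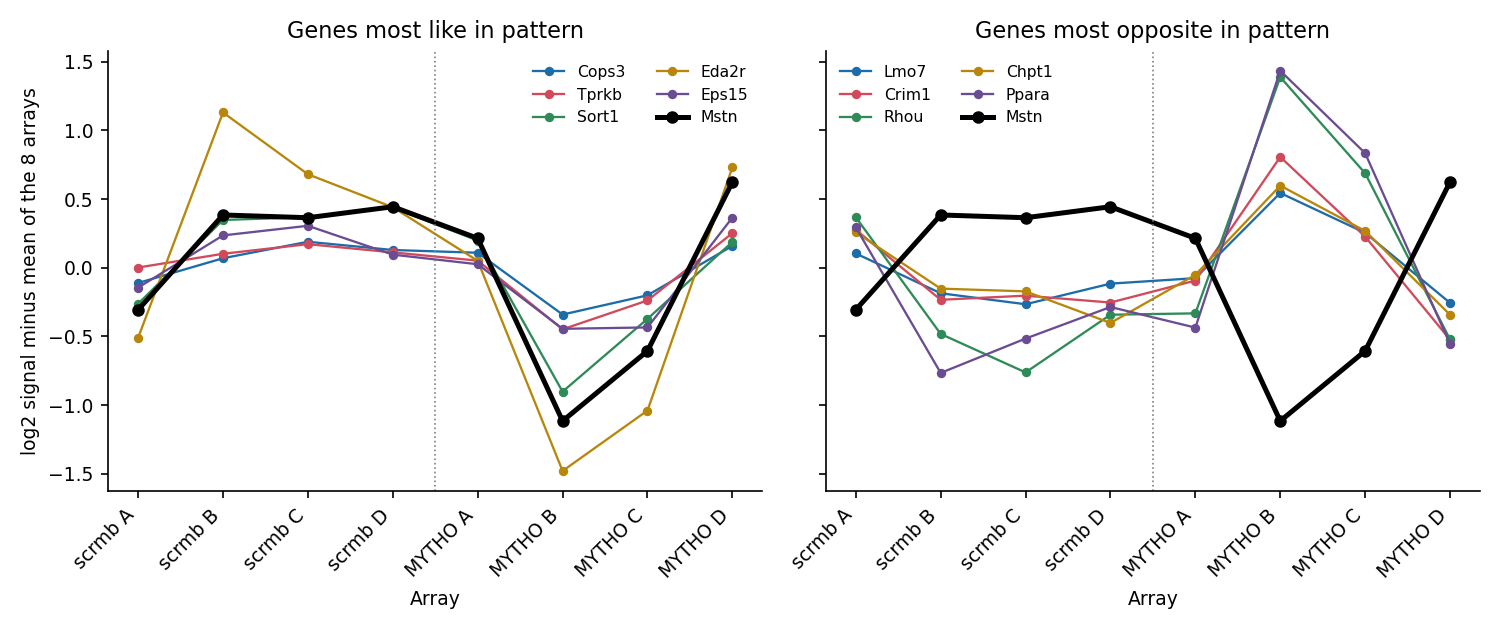
Log2 signal minus the mean of the 8 arrays for *Mstn* (thick black line) and the 5 genes most like it (left) or most opposite to it (right), with arrays on the x axis and a dotted line between scrmb and MYTHO. *Mstn* and the genes of the left panel are lowest on MYTHO array B, where those of the right panel are highest.

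*Gdf11* codes for a ligand whose mature part is nearly the same as that of myostatin. Its log2 signals were 8.60, 8.37, 8.76 and 9.44 in scrmb muscle, with a mean of 8.79 ± 0.46 (SD, n = 4), and 10.19, 9.28, 8.37 and 9.48 in MYTHO-KD muscle, with a mean of 9.33 ± 0.75 (SD, n = 4). The signal was higher with MYTHO-KD in animals A, B and D, by 1.59, 0.91 and 0.04, and lower in animal C by a difference of -0.39. Most of the mean difference therefore came from animals A and B. The log2 fold change was 0.54 (SE 0.35, 95% confidence interval -0.22 to 1.30), with an unadjusted p of 0.149 and an adjusted p of 0.572 (limma). Without MYTHO array C, it was 0.86 with an unadjusted limma p of 0.0154, a level that 11.3% of all probe sets reached in that fit, and an adjusted p of 0.353, the lowest that any member had under any alternative. Without MYTHO array A, it was 0.25 with an unadjusted limma p of 0.448.

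*Inhba* (chr13:16004256-16031609, mm10) codes for the subunit of activin A. It had log2 signals of 5.78, 5.62, 5.70 and 5.82 in scrmb muscle and of 5.81, 5.49, 5.76 and 6.22 in MYTHO-KD muscle. These lay below the median of all probe sets, 6.395, on every array, and the groups overlapped throughout. The log2 fold change was 0.09 (95% confidence interval -0.32 to 0.50, adjusted limma p of 0.892).

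Neither type II receptor passed the test. *Acvr2a* (chr2:48814109-48903264, mm10) had log2 signals of 10.53, 10.71, 11.47 and 10.69 in scrmb muscle and of 10.69, 10.42, 10.39 and 10.83 in MYTHO-KD muscle. A single scrmb array, that of animal C, lay above all others, and its animal had the difference of the largest size, -1.08. The log2 fold change was -0.27 (95% confidence interval -0.76 to 0.23, adjusted limma p of 0.689), and -0.061 without that array. *Acvr2b* (chr9:119401583-119442148, mm10), the receptor with the higher affinity for myostatin, had log2 signals of 5.16, 6.68, 6.36 and 6.51 in scrmb muscle and of 6.18, 6.43, 5.96 and 6.28 in MYTHO-KD muscle. Its mean signal was below the median of all probe sets. The log2 fold change was 0.035 (95% confidence interval -0.61 to 0.68, adjusted limma p of 0.980), and it turned to -0.30 without scrmb array A, the lowest of the 8.

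Among the ligand traps, *Fst* was the single member with the same direction in all 4 animals, as 19.7% of all probe sets were. *Fst* (chr13:114452262-114458989, mm10), which codes for follistatin, had log2 signals of 7.24, 5.97, 6.29 and 6.94 in scrmb muscle, with a mean of 6.61 ± 0.58 (SD, n = 4), and of 7.47, 6.84, 6.65 and 7.15 in MYTHO-KD muscle, with a mean of 7.03 ± 0.36 (SD, n = 4). Each animal had the higher value in the MYTHO-KD leg, by 0.23, 0.87, 0.36 and 0.21. The groups overlapped, with scrmb values from 5.97 to 7.24 and MYTHO-KD values from 6.65 to 7.47. The log2 fold change was 0.42 (SE 0.29, 95% confidence interval -0.21 to 1.04), with an unadjusted p of 0.172 and an adjusted p of 0.602 (limma). With the animal as a replicate block, the interval was -0.02 to 0.86, with an unadjusted p of 0.0605 and an adjusted p of 0.419 (limma). Without scrmb array A, the unblocked log2 fold change was 0.63 with an unadjusted p of 0.0442, a level reached by 11.4% of all probe sets in that fit, and an adjusted p of 0.423 (limma). It was 0.20 without scrmb array B (unadjusted limma p of 0.477) and 0.27 without MYTHO array A (unadjusted limma p of 0.391). *Fstl3* (chr10:79777274-79782630, mm10), the related trap that lacks the heparin-binding site of follistatin, had log2 signals of 6.63, 6.69, 6.80 and 6.40 in scrmb muscle and of 6.57, 6.23, 7.06 and 6.48 in MYTHO-KD muscle. It was higher in 2 animals and lower in 2, with a log2 fold change of -0.045 (95% confidence interval -0.49 to 0.40, adjusted limma p of 0.958).

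The Smads had log2 fold changes between -0.265 and 0.26. *Smad2* (chr18:76241090-76311748, mm10) had log2 signals of 7.48, 7.81, 8.15 and 7.59 in scrmb muscle and of 8.10, 7.31, 7.86 and 7.60 in MYTHO-KD muscle, with a log2 fold change of -0.04 (95% confidence interval -0.52 to 0.44, adjusted limma p of 0.967). *Smad3* (chr9:63646766-63757994, mm10), the other Smad activated by these receptors, had log2 signals of 10.75, 10.85, 10.36 and 10.96 in scrmb muscle and of 10.66, 10.13, 10.40 and 10.67 in MYTHO-KD muscle. It was lower in 3 of 4 animals, with a log2 fold change of -0.265 (95% confidence interval -0.70 to 0.17, adjusted limma p of 0.645) and an exact permutation p of 0.20, the lowest of the 10 members. *Smad7* (chr18:75367365-75395935, mm10), the inhibitory Smad that the pathway itself induces, had log2 signals of 4.94, 5.45, 5.30 and 5.44 in scrmb muscle and of 5.43, 5.98, 5.42 and 5.35 in MYTHO-KD muscle. It was higher in 3 of 4 animals and below the median of all probe sets, with a log2 fold change of 0.26 (95% confidence interval -0.18 to 0.71, adjusted limma p of 0.653).

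**Figure D4:**
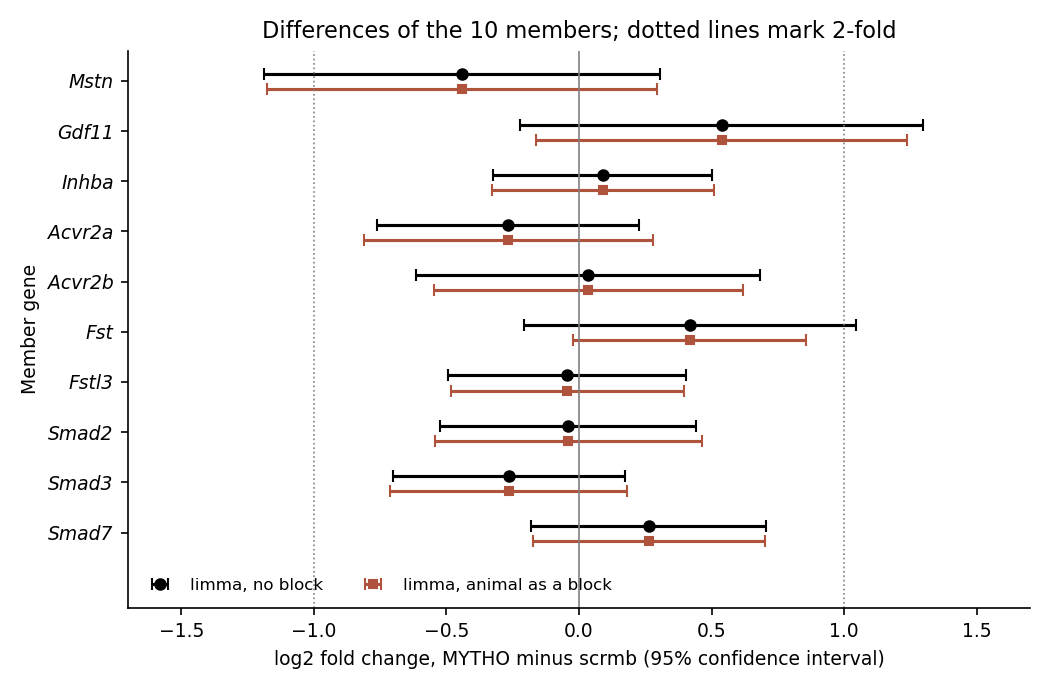
Log2 fold change (MYTHO minus scrmb, x axis) of the 10 genes with 95% confidence intervals from limma without a block (black circles) and with the animal as a block (brown squares), and dotted lines at 2-fold. All intervals include 0, and those of *Mstn*, *Gdf11* and, without the block, *Fst* reach past 2-fold.

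A missed threshold does not show equal levels, and the intervals give the sizes that remain possible. For 7 of the 10 genes, the 95% interval lay inside a 2-fold change in both directions. The exceptions were *Mstn*, with a MYTHO to scrmb ratio between 0.439 and 1.23, *Gdf11*, with 0.858 to 2.46, and *Fst*, with 0.865 to 2.06. With the block, 8 of 10 intervals lay inside 2-fold, those of *Mstn* and *Gdf11* still reaching past it.

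Correlations between the members were taken pair by pair, and pairs of other genes were not counted beside them. Of 45 pairs, 1 had a correlation of at least 0.7 over the 8 arrays, *Gdf11* with *Fst* (r = 0.706, and 0.633 after removing group means), and none had a correlation of -0.7 or below. After the group means were removed, other pairs passed 0.7, *Mstn* with *Inhba* (r = 0.768, and 0.601 before) and *Acvr2b* with *Smad7* (r = 0.744, and 0.666 before). *Mstn* went most closely with *Smad3* before this step (r = 0.693, and 0.625 after it) and with *Inhba* after it. The most opposite pair was *Gdf11* and *Fstl3* before the step (r = -0.607, and -0.634 after it) and *Inhba* and *Smad7* after it (r = -0.661, and -0.447 before). The pairs share arrays and animals and were ranked after their values were seen.

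The wider pathway was read from 73 other genes, all found in the table. At an unadjusted limma p under 0.05, 6 were higher in MYTHO-KD muscle, where 4.81% of all probe sets were, and 1 was lower, where 7.58% of all probe sets were. In both directions together, 7 of the 73 were called, beside 12.4% of all probe sets. None of the 73 had an adjusted p under 0.05, the lowest being 0.236, and none passed 2-fold. The log2 fold change was positive for 47 and negative for 26, with a median of 0.075 beside -0.005 over all probe sets. With the animal as a block, 9 of the 73 had an unadjusted p under 0.05, beside 12.6% of all probe sets. Of these, 8 were higher, as were 4.94% of all probe sets, and 1 was lower, as were 7.66%. Without MYTHO array B, 1 of the 73 genes (lower) was at an unadjusted p under 0.05, beside 9.84% of all probe sets in that fit, and without scrmb array C, 2 were (1 higher and 1 lower), beside 9.5%. The 6 higher genes kept positive log2 fold changes, of 0.36 to 0.58 without MYTHO array B and of 0.44 to 0.59 without scrmb array C. These genes were chosen for being higher on the same arrays, so the kept sign adds no support.

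Of 18 other ligands, 3 were higher and 15 did not pass the unadjusted test. *Bmp4*, a ligand that signals through Smad1 and Smad5, had log2 signals of 7.02, 7.07, 6.74 and 6.52 in scrmb muscle and of 7.0, 7.89, 7.68 and 7.26 in MYTHO-KD muscle, a log2 fold change of 0.62 with an unadjusted p of 0.0189 and an adjusted p of 0.302 (limma). *Gdf5* and *Gdf6*, related ligands of joint and bone formation, had log2 fold changes of 0.535 (adjusted p of 0.347) and 0.43 (adjusted p of 0.394). The signals of *Gdf6* were low, 3.21 to 4.10 on the 8 arrays, and at least 75% of all probe sets had a higher mean. With the animal as a block, the unadjusted limma p of *Gdf6* was 0.054. *Gdf5* and *Gdf6* were higher in 4 of 4 animals and *Bmp4* in 3.

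Of 12 other receptors, 1 was higher. *Eng*, which codes for the co-receptor endoglin of endothelial cells, had log2 signals of 12.12, 11.44, 10.74 and 12.11 in scrmb muscle and of 12.05, 13.05, 12.15 and 12.35 in MYTHO-KD muscle, a log2 fold change of 0.80 with an unadjusted p of 0.0292 and an adjusted p of 0.344 (limma). The mean of 4 endothelial markers (*Pecam1*, *Cdh5*, *Kdr* and *Tek*) was also higher, at 11.05 to 11.28 on the MYTHO arrays against 10.27 to 10.86 on the scrmb arrays. Of the 4, 2 had an unadjusted limma p under 0.05, beside 12.4% of all probe sets. The part of endothelial cells in the *Eng* values was not tested.

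Of 13 other binding proteins, 1 was higher, 1 was lower and 11 did not pass the unadjusted test. *Dcn* codes for decorin, a matrix proteoglycan that binds myostatin and TGF-β. Its log2 signals were 17.99, 18.06, 17.89 and 17.63 in scrmb muscle and 17.28, 17.01, 17.28 and 17.62 in MYTHO-KD muscle, so that every MYTHO array lay below every scrmb array, by 0.01 at the closest. The log2 fold change was -0.595 (SE 0.19, 95% confidence interval -1.01 to -0.18), with an unadjusted p of 0.0085 and an adjusted p of 0.236 (limma). Of 5 fibroblast markers, 0 had an unadjusted p under 0.05, and their mean lay between 8.40 and 8.48 on the scrmb arrays and between 8.22 and 8.83 on the MYTHO arrays. *Ltbp4*, which codes for a protein that holds latent TGF-β in the matrix, had a log2 fold change of 0.75 (adjusted p of 0.358) and was higher in 3 of 4 animals.

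None of the 6 genes for proteases that process the ligands had an unadjusted p under 0.05. The lowest p among them was that of *Pcsk6*, a proprotein convertase, with a log2 fold change of -0.21 and an adjusted p of 0.725 (limma). Of 14 other Smads and regulators, 1 was higher. *Skil*, which codes for the Smad repressor SnoN, had log2 signals of 9.42, 9.78, 9.57 and 9.80 in scrmb muscle and of 9.83, 10.40, 10.00 and 10.19 in MYTHO-KD muscle, with no overlap between the groups. Its log2 fold change was 0.46 with an unadjusted p of 0.0298 and an adjusted p of 0.345 (limma). The groups did not overlap in 2 of the 73 genes, *Dcn* and *Skil*, a smaller share than the 6.46% of all probe sets.

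None of 10 genes listed as targets of TGF-β family signals had an unadjusted p under 0.05, although the log2 fold change was positive in 7 and the list median was 0.35. These signals induce most of the listed genes, but *Fbxo30*, which codes for a ubiquitin ligase subunit and had a log2 fold change of -0.18, is repressed by BMP signals in muscle. The lowest p was that of *Tgfbi*, which went the other way, with a log2 fold change of -0.41 and an adjusted p of 0.455 (limma). *Cdkn1a*, which codes for the cell cycle inhibitor p21, had a log2 fold change of 0.62 with an unadjusted p of 0.0868 without the block and of 0.010 with the block, where its adjusted p was 0.248 (limma). It was higher in all 4 animals, and it was chosen after its values were seen. None of 5 factors linked to *Mstn* transcription (*Foxo1*, *Mef2c*, *Myod1*, *Nr3c1* and *Cebpd*) had an unadjusted p under 0.05, and their log2 fold changes lay between -0.275 and 0.36.

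**Figure D5:**
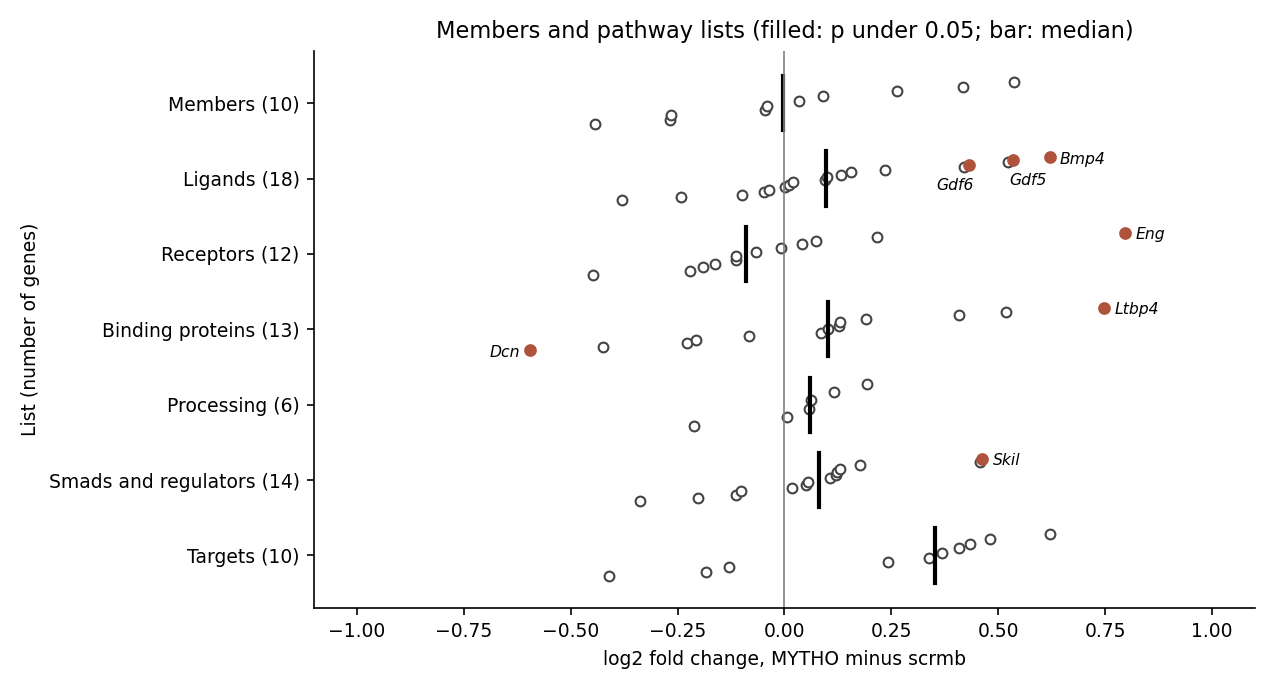
Log2 fold change (MYTHO minus scrmb, x axis) of the 10 genes and of 73 other pathway genes grouped by role (y axis), with filled points for an unadjusted limma p under 0.05 and a bar at each list's median. The 10 genes hold no filled point and have a median of -0.0025, and the filled points of the other lists are 6 genes to the right and *Dcn* to the left.

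Other cell types of the muscle gave these values. Of 4 satellite cell markers, 1 (*Cdh15*, log2 fold change of 0.51) had an unadjusted limma p under 0.05, beside 12.4% of all probe sets. None of the markers of macrophages (5 genes), adipocytes (4), Schwann cells (4) and blood (4) did. Adipocyte means ran from 4.91 to 8.81 on the scrmb arrays and from 5.39 to 10.50 on the MYTHO arrays, Schwann cell means from 7.80 to 10.40 and from 7.99 to 8.74, and blood means from 11.70 to 13.70 and from 12.44 to 14.76. The array highest in adipocyte markers, MYTHO array A, also had the highest *Gdf11* and *Fst* signals, and the array highest in Schwann cell markers, scrmb array C, the highest *Acvr2a* and *Smad2* signals. Such matches did not hold across the arrays. Scrmb array D, the lowest in adipocyte markers, had a *Gdf11* signal of 9.44 and a *Fst* signal of 6.94. Scrmb array C, with an adipocyte mean of 8.81, had 8.76 and 6.29. MYTHO array C, with a Schwann cell mean of 8.74, had the lowest *Acvr2a* signal, 10.39. The part of these cells in the members' values was not tested.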

How the data were processed

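Clariom S Mouse arrays of 8 GAS samples were read as deposited log2 signals, which the authors made with the Transcriptome Analysis Console 4.0.1 (gene-level SST-RMA, annotation release na36 on mm10, per the file headers). They are normalized across the arrays and end at a ceiling of 19.93. The deposited columns of the authors' own comparison (group averages, fold change, p-value and false discovery rate) were not used. Groups came from the column names. No column name holds a replicate number of the labels.

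The 10 genes and the lists were chosen with earlier results of these data known. Groups were compared with limma 3.58.1 in R 4.3.3 (lmFit and eBayes, two-sided) over all 22206 probe sets, with the Benjamini-Hochberg adjustment of p over all of them. The methods of the study name an ANOVA with ebayes and do not state whether legs were paired. The main fit here had no block. The fits were tested on simulated data. For single genes, an exact permutation test used all relabellings of the arrays. Beyond the members, the text names the pathway genes with an unadjusted p under 0.05 or, where a list has none, its gene with the lowest p, and the 5 genes most like and the 5 most unlike *Mstn* in Pearson correlation. Other scalings, filters, variance models, blocks and the removal of each array were tried as alternatives.

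The column headers carry an animal number once in each group, and the scrmb virus went into the opposite leg, so equal numbers pair the arrays. Correlations of deviations from the group means were 0.0027, -0.0013, 0.135 and 0.087 for animals A to D. Between arrays of different animals, they ran from -0.167 to 0.104. The signals therefore do not tell the pairs apart, and the pairing rests on the numbers in the headers. Promoter windows came from a table made from RefSeq (GRCm38.p6), in which 7 of the 10 genes were matched. Windows of *Fst*, *Smad2* and *Smad7* were not used here. With 4 arrays per group, precision is limited by their number.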

Additional observations from a re-analysis of the deposited data

Results flagged for a closer look

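In 7 of 52 groups of 4 arrays, 1 array stood apart from the other 3 by more than the critical value of Dixon's test at the 95% level, which chance gives in about 1 of 20 groups. *Mstn* on scrmb array A had a log2 signal of 13.66, below 14.33 to 14.41 on the other scrmb arrays. On the same array, the slow-fibre mean was 13.70, above 11.61 to 11.94 on the other scrmb arrays, and *Tgfbi* was 8.46, below 9.07 to 9.08. On MYTHO array D, the slow-fibre mean was 11.68, below 14.43 to 14.88 on the other MYTHO arrays. On MYTHO array B, *Smad7* was 5.98, above 5.35 to 5.43, and *Cebpd* was 9.49, above 8.01 to 8.20. The targeted gene *D230025D16Rik* was 8.80 on MYTHO array C, above 8.08 to 8.20 on the other MYTHO arrays and below all scrmb arrays.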

How the results depend on the processing

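None of the 10 members passed an adjusted p under 0.05 under any alternative, and the lowest adjusted p was 0.353 (limma). The count of members at an unadjusted p under 0.05 was 0 and ran from 0 to 1 when single arrays were left out, reaching 1 without MYTHO array C (*Gdf11*), MYTHO array D (*Mstn*) or scrmb array A (*Fst*). The count of the 73 pathway genes at that level was 7 and ran from 1 to 10, being 1 without MYTHO array B and 2 without scrmb array C. With the replicate block by animal, it was 9, with *Nog*, *Ctgf* and *Cdkn1a* gained and *Gdf6* lost, and the paired fit changed no call of a member. Of 187 values of the members under alternatives, 8 had the opposite sign, in 4 members with differences near 0. *Inhba* ran from -0.043 to 0.20, *Acvr2b* from -0.30 to 0.20, *Fstl3* from -0.20 to 0.073 and *Smad2* from -0.17 to 0.096 when single arrays were left out, and *Acvr2b* was -0.037 with array weights. The other 6 members kept their sign without single arrays, with *Mstn* from -0.72 to -0.14, *Gdf11* from 0.25 to 0.86, *Acvr2a* from -0.37 to -0.061, *Fst* from 0.20 to 0.63, *Smad3* from -0.39 to -0.15 and *Smad7* from 0.12 to 0.33. The causes of these moves were not tested. The targeted gene stayed between -2.98 and -2.74. Members with low signals gave no value where the lower probe sets were removed. No detection call was used, and the mean signals of *Inhba*, *Acvr2b* and *Smad7* lay below the median of all probe sets.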
